A study of Mus musculus with 8 samples.

Results

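The ligands and receptors of axon guidance were examined in prefrontal cortex (PFC) of α-Gal A(-/0) mice, a model of Fabry disease, and of wildtype mice. Members were all array probes whose gene name is an Eph receptor, an ephrin, a semaphorin of classes 3 to 7, a plexin, a neuropilin, a Slit, a Robo, a netrin or netrin-G, an Unc5 receptor or Dcc. This rule found 106 of the 55681 non-control probes, under 72 names of 34650 on the array, 1 of which (Plxna4os1) is a transcript antisense to Plxna4 that only shares the letters of the name. RNA came from 4 male α-Gal A(-/0) mice, which lack functional α-galactosidase A, and 4 male wildtype C57BL/6J mice, all aged 20 to 24 weeks, with 1 one-color array per mouse on 1 slide. The labels give C57BL/6J as the strain of both groups and no treatment. Both lines were kept as separate inbred colonies, so genotype and colony cannot be told apart, and in bulk tissue fewer cells of a type and less RNA per cell cannot be told apart.

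Axon guidance molecules steer growing axons by attraction and repulsion during development, and many remain expressed in adult cortex, where they are known for roles in dendritic spines, synapses and vessels. Ephrins are membrane-bound ligands that signal to Eph receptor tyrosine kinases on neighbouring cells and also back into their own cell. Semaphorins act through plexins, with neuropilins as co-receptors for most secreted class 3 members, while Slits act through Robo receptors and netrins through Dcc and the Unc5 family.

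Of the 106 probes, 101 probes of 70 genes gave a signal well above background in every mouse of 1 or both genotypes and were tested, among 34326 tested probes of the array. Few guidance probes passed a test between the genotypes. With limma and Benjamini-Hochberg adjustment over all tested probes, 1 of 101 guidance probes was called at an adjusted p under 0.05, an Ephb4 probe that was higher in α-Gal A(-/0) mice, against 0.883% of all tested probes called in either direction and 0.306% called higher. The thresholds of the study (a fold change of 1.2 or more at an unadjusted p no higher than 0.01), set here on limma's p, were passed by 4 guidance probes, 3.96% against 3.46% of all tested probes. Of these, 3 were lower in α-Gal A(-/0) mice, beside 2.31% of all tested probes. With the methods' t-test in place of limma, 1 guidance probe passed them, the same Ephb4 probe, against 1.82% of all tested probes. An unadjusted p under 0.05 was reached by 7 guidance probes that were higher and 7 that were lower in α-Gal A(-/0) mice, 6.93% each, against 4.42% of all tested probes higher and 7.57% lower. Non-overlapping genotypes were seen at 10 guidance probes (3 higher and 7 lower), 9.90% against 7.95%.

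The intervals show how far a difference could reach. For 90 of 101 guidance probes (89.1%) the 95% interval of the difference lay within 1.5-fold in both directions, against 81.5% of all tested probes. At the brightest tested probe of each gene, the median log2 difference between α-Gal A(-/0) and wildtype mice was -0.03 over 70 guidance genes and -0.02 over 23625 genes of the array. The ligands and the receptors had the same median, -0.03 over 37 ligand genes and -0.03 over 33 receptor genes.

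**Figure D1:**
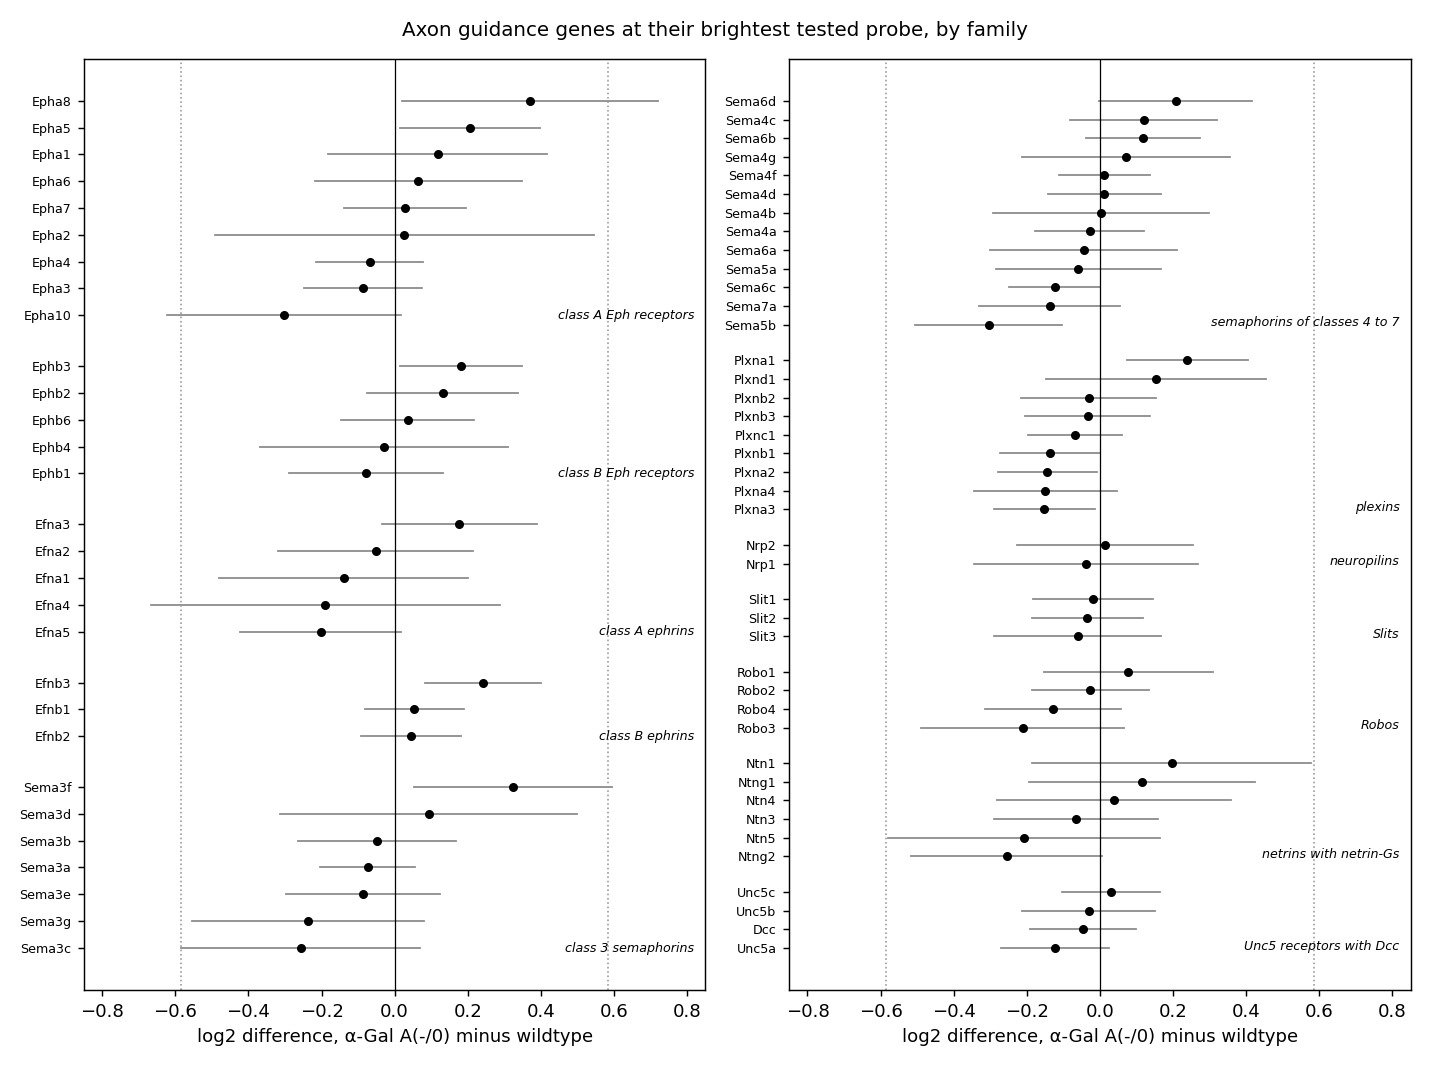
Log2 difference between α-Gal A(-/0) and wildtype mice (x axis) of each guidance gene at its brightest tested probe, by family, with 95% intervals as bars and dotted lines at 1.5-fold in each direction. The 70 genes lie between -0.30 (Sema5b) and 0.37 (Epha8), on both sides of 0 in every family with more than 3 tested genes, and the Ephb4 point is its brighter probe, not the called one.

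The tested probes of the 4 genes with a probe past these thresholds in limma are shown with their array sequences, since probes of the same gene did not always give the same difference. Each probe has 60 bases and is written 5′ to 3′ on the strand of the transcript. A probe is printed whole only where at least 2 reading frames have no stop codon and another probe of the gene lies further downstream. Otherwise its first 30 bases are given. Positions come from the array's design, on mouse build mm9, and the array files do not resolve them into exons or untranslated regions.
Ephb4 A_66_P130777, chr5:137813703-137813762, plus strand: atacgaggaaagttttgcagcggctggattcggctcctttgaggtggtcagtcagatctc
Ephb4 A_55_P2058718, chr5:137815646-137815705, plus strand: gtcaacagaggcagacaacggtgcttggaa
Robo3 A_55_P2147306, chr9:37224780-37224839, minus strand: gattcatgcatctggtcaacattgaaattg
Robo3 A_55_P2144886, chr9:37224357-37224416, minus strand: tctaccgctggtagcaattcttctaggggt
Sema3c A_52_P87839, chr5:17234078-17234137, plus strand: acgtaaagtcaagagtgactcataaagagc
Sema3c A_55_P2143025, chr5:17235981-17236040, plus strand: ccctgtgtagagaaagcaaactagatgtag
Sema5b A_55_P1973844, chr16:35663660-35663719, plus strand: tggagagtagagatggcagagaatgggttc
Sema5b A_55_P1994112, chr16:35664281-35664340, plus strand: cagcaacaaaaaggatgttaagctgtggca
Sema5b A_55_P1994107, chr16:35664618-35664677, plus strand: aaaggcaacatcagatgtgggcctaccctg

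Ephb4 encodes the receptor of ephrin-B2 that is best known for marking veins. Its upstream probe (A_66_P130777) had normalised log2 signals of 6.85, 6.80, 6.97 and 6.96 in α-Gal A(-/0) mice 1 to 4, against 6.45, 6.31, 6.30 and 6.46 in wildtype mice 1 to 4. All α-Gal A(-/0) mice were above all wildtype mice, a log2 difference of 0.52 (standard error 0.07, 95% interval 0.36 to 0.67, 1.43-fold, adjusted p = 0.0126). The downstream probe (A_55_P2058718) had 7.16, 6.90, 7.46 and 7.43 in α-Gal A(-/0) mice, against 7.29, 7.02, 7.25 and 7.51 in wildtype mice. Here the genotypes overlapped fully and the log2 difference was -0.03 (95% interval -0.37 to 0.31, adjusted p = 0.96), so the 2 probes of the same gene lay 0.55 apart on the log2 scale, the widest spread of any guidance gene.

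The call of the upstream Ephb4 probe held under 15 of 21 other settings, with a log2 difference between 0.34 and 0.55 throughout. Outside the fits of 1 slide row, the adjusted p lay between 0.00732 and 0.0834. The call was lost under the other 6. These included the methods' t-test (adjusted p = 0.0533) and the replicate number as a block (adjusted p = 0.0834). They also included the fit without wildtype mouse 3 (log2 difference 0.49, adjusted p = 0.0569) and the slide row as a block (0.48, adjusted p = 0.0806). The last were the arrays of row 1 alone (log2 difference 0.50) and of row 2 alone (0.45). Row 1 holds 1 α-Gal A(-/0) array and row 2 holds 1 wildtype array, so these fits cannot decide whether the call holds. Endothelial and mural cell markers (6 of 6 tested) averaged between -0.16 and 0.06 in α-Gal A(-/0) mice and between -0.12 and 0.12 in wildtype mice, on the log2 scale relative to the wildtype mean. Within 1 Mb of this probe, 94 probes of other genes were tested and 1 was called, against 0.883% of all tested probes. It was a probe of Agfg2, 0.29 Mb away and higher in α-Gal A(-/0) mice (log2 difference 1.07, standard error 0.08). In the study's RT-qPCR, on separate backcrossed α-Gal A(-/0) mice and wildtype mice, Agfg2 did not differ significantly.

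Among the other class B Eph receptors, which bind class B ephrins at synapses and in axon tracts, none passed the adjusted threshold. Ephb3 had 13.81, 13.77, 13.94 and 13.94 in α-Gal A(-/0) mice, against 13.57, 13.81, 13.65 and 13.69 in wildtype mice. Only wildtype mouse 2 reached into the α-Gal A(-/0) range (log2 difference 0.18, 95% interval 0.01 to 0.35, adjusted p = 0.385). Ephb2, a partner of NMDA receptors at excitatory synapses, differed by 0.13 (95% interval -0.08 to 0.34), Ephb1 by -0.08, and the 2 probes of the kinase-inactive receptor Ephb6 by 0.04 and 0.02.

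Of the class B ephrins, Efnb3, a midline repellent that also acts in spines, came closest to a call. Its probe had 12.80, 12.92, 12.85 and 12.83 in α-Gal A(-/0) mice, against 12.46, 12.71, 12.58 and 12.67 in wildtype mice. The genotypes did not overlap, yet with a log2 difference of 0.24 (standard error 0.07, 95% interval 0.08 to 0.40) the adjusted p was 0.233. Efnb1, on the X chromosome as Gla is, differed by 0.05 (95% interval -0.08 to 0.19), and the brighter probe of Efnb2, the ligand of Ephb4, by 0.05 (95% interval -0.09 to 0.18). The dimmer Efnb2 probe, well above background in 3 of 4 α-Gal A(-/0) mice, differed by -0.18 (95% interval -0.48 to 0.12).

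Beside Ephb3 and Efnb3, oligodendrocyte markers (6 of 6 tested) averaged between 0.13 and 0.19 in α-Gal A(-/0) mice and between -0.13 and 0.15 in wildtype mice, with wildtype mouse 2 the highest of its group in all 3 measures. The part of these markers in the 2 genes was not tested.

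The class A Eph receptors, which pair with lipid-anchored class A ephrins in topographic maps, had 9 genes and 14 probes tested, and none passed the adjusted threshold. Epha8 showed the largest difference of the family, with 10.89, 10.85, 10.74 and 10.39 in α-Gal A(-/0) mice, against 10.01, 10.61, 10.30 and 10.47 in wildtype mice. Its mouse 4 lay among the wildtype mice (log2 difference 0.37, 95% interval 0.02 to 0.72, adjusted p = 0.392). Epha5, which shapes cortical and hippocampal circuits, had 3 probes with log2 differences of 0.21, 0.03 and -0.09, and only the first reached an unadjusted p under 0.05 (adjusted p = 0.386).

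Epha4, the receptor that binds both ephrin classes, had 11.88, 11.74, 11.80 and 11.78 in α-Gal A(-/0) mice, against 11.90, 11.74, 11.94 and 11.89 in wildtype mice. These ranges overlapped (log2 difference -0.07, 95% interval -0.21 to 0.08). The 3 probes of Epha7, a repellent receptor of corticothalamic axons, differed by between -0.05 and 0.03. Epha10 was the lowest of the family at -0.30 (95% interval -0.62 to 0.02, adjusted p = 0.438), and its dimmer probe differed by -0.10.

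Of the 5 class A ephrins, 4 had a negative difference at the brightest probe, beside 13553 of 23625 genes of the array, and none passed the threshold. Efna5, a ligand of Epha4 and Epha5, had 11.54, 11.29, 11.42 and 11.12 in α-Gal A(-/0) mice, against 11.61, 11.46, 11.60 and 11.51 in wildtype mice. Only α-Gal A(-/0) mouse 1 was within the wildtype range (log2 difference -0.20, 95% interval -0.42 to 0.02, adjusted p = 0.45). Efna3 had the only positive difference, 0.18 (95% interval -0.03 to 0.39).

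The class 3 semaphorins are secreted and mostly repel axons through neuropilins and class A plexins. Sema3c had 2 probes with negative differences. The upstream probe (A_52_P87839) had 6.15, 6.29, 6.41 and 6.68 in α-Gal A(-/0) mice, against 6.61, 6.98, 7.07 and 6.74 in wildtype mice. It passed the fold and p thresholds in limma (log2 difference -0.47, standard error 0.14, 95% interval -0.79 to -0.15) but not with the methods' t-test. α-Gal A(-/0) mouse 4 was above wildtype mouse 1, and limma's adjusted p was 0.249. The downstream probe had 10.30, 10.19, 10.47 and 10.70 in α-Gal A(-/0) mice, against 10.91, 10.41, 10.57 and 10.80 in wildtype mice, with more overlap (log2 difference -0.26, adjusted p = 0.521).

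Sema3f, a ligand of neuropilin-2 that limits spines on cortical dendrites, differed in the other direction. It had 10.78, 10.82, 10.74 and 10.30 in α-Gal A(-/0) mice, against 10.35, 10.42, 10.24 and 10.34 in wildtype mice. Mice 1 to 3 of the α-Gal A(-/0) group were above all wildtype mice and mouse 4 was not (log2 difference 0.32, 95% interval 0.05 to 0.59, adjusted p = 0.34). Without α-Gal A(-/0) mouse 4 the log2 difference was 0.44 and the probe was called (adjusted p = 0.0294), and this was the sole setting of 21 that called it.

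Striatal markers (7 of 8 tested, 1 being the newer symbol of a listed gene and not on the array) were high in the same α-Gal A(-/0) mice as Sema3f and Epha8. On the log2 scale relative to the wildtype mean they averaged 1.06, 1.24, 0.76 and -0.47 in α-Gal A(-/0) mice 1 to 4, against -0.80, 0.63, 0.09 and 0.08 in wildtype mice 1 to 4. α-Gal A(-/0) mouse 4 was lowest of its group in these markers, in Sema3f and in Epha8, and wildtype mouse 1 was lowest of its group in the markers and in Epha8 while wildtype mouse 2 was highest in all 3. In Sema3f, wildtype mouse 1 was not lowest, at 10.35 against 10.24 in wildtype mouse 3. Between the genotypes the markers overlapped (exact permutation p = 0.229, adjusted p = 0.409 over 13 lists). The part of the markers in the 2 genes was not tested.

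Sema3a, the founding repellent of the class, had 10.15, 10.18, 10.24 and 10.15 at its brighter probe in α-Gal A(-/0) mice, against 10.29, 10.30, 10.15 and 10.26 in wildtype mice. The difference was small (log2 difference -0.07, 95% interval -0.20 to 0.06). Its dimmer probe differed by -0.26 with a wide interval (-0.65 to 0.13), and α-Gal A(-/0) mouse 2 was lowest there at 5.36. That probe was well above background in 3 of 4 α-Gal A(-/0) mice.

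Among the semaphorins of classes 4 to 7, most of which are membrane-bound, 13 genes and 20 probes were tested, and the 3 Sema5b probes had the lowest differences of these. Sema5b is a transmembrane semaphorin with thrombospondin repeats. The first probe (A_55_P1973844) had 8.87, 8.76, 9.04 and 8.87 in α-Gal A(-/0) mice, against 9.19, 9.16, 9.06 and 9.16 in wildtype mice. The second (A_55_P1994112) had 10.03, 9.93, 10.28 and 9.90 in α-Gal A(-/0) mice, against 10.34, 10.37, 10.36 and 10.28 in wildtype mice. The last (A_55_P1994107) had 7.11, 7.22, 7.39 and 6.75 in α-Gal A(-/0) mice, against 7.41, 7.41, 7.38 and 7.37 in wildtype mice.

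All α-Gal A(-/0) mice were below all wildtype mice at the first 2 Sema5b probes, and the last overlapped through α-Gal A(-/0) mouse 3. The log2 differences were -0.26 (95% interval -0.42 to -0.09), -0.30 (-0.51 to -0.10) and -0.28 (-0.57 to 0.01), about the same 1.2-fold, and none was called (adjusted p = 0.219, 0.235 and 0.433). The 3 probes lie side by side on chromosome 16 and were read from the same RNA, so they are repeat readings of 4 mice against 4 and not independent samples. Of 23 tested probes of other genes within 1 Mb, 1 was called, against 0.883% of all tested probes. It was a probe of Dtx3l, 0.26 Mb away and lower in α-Gal A(-/0) mice (log2 difference -0.67, standard error 0.10).

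No other member of these classes passed the adjusted threshold. Sema6d, a ligand of class A plexins, had the highest difference of the family at its brighter probe, with 10.64, 10.52, 10.71 and 10.82 in α-Gal A(-/0) mice, against 10.33, 10.62, 10.53 and 10.39 in wildtype mice. The genotypes overlapped through α-Gal A(-/0) mouse 2 (log2 difference 0.21, 95% interval -0.0027 to 0.42, adjusted p = 0.422), and the dimmer probe differed by 0.05. Sema4d, which signals through Plxnb1, had log2 differences of 0.01 and -0.15 at its 2 probes. Sema7a, a lipid-anchored ligand of Plxnc1, differed by -0.14 (95% interval -0.33 to 0.05). The 2 probes of Sema6c differed in opposite directions, by -0.12 at the brighter one, where the genotypes did not overlap (10.70, 10.61, 10.70 and 10.70 in α-Gal A(-/0) mice, against 10.86, 10.81, 10.73 and 10.80 in wildtype mice, adjusted p = 0.421), and by 0.13 at the dimmer one.

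**Figure D2:**
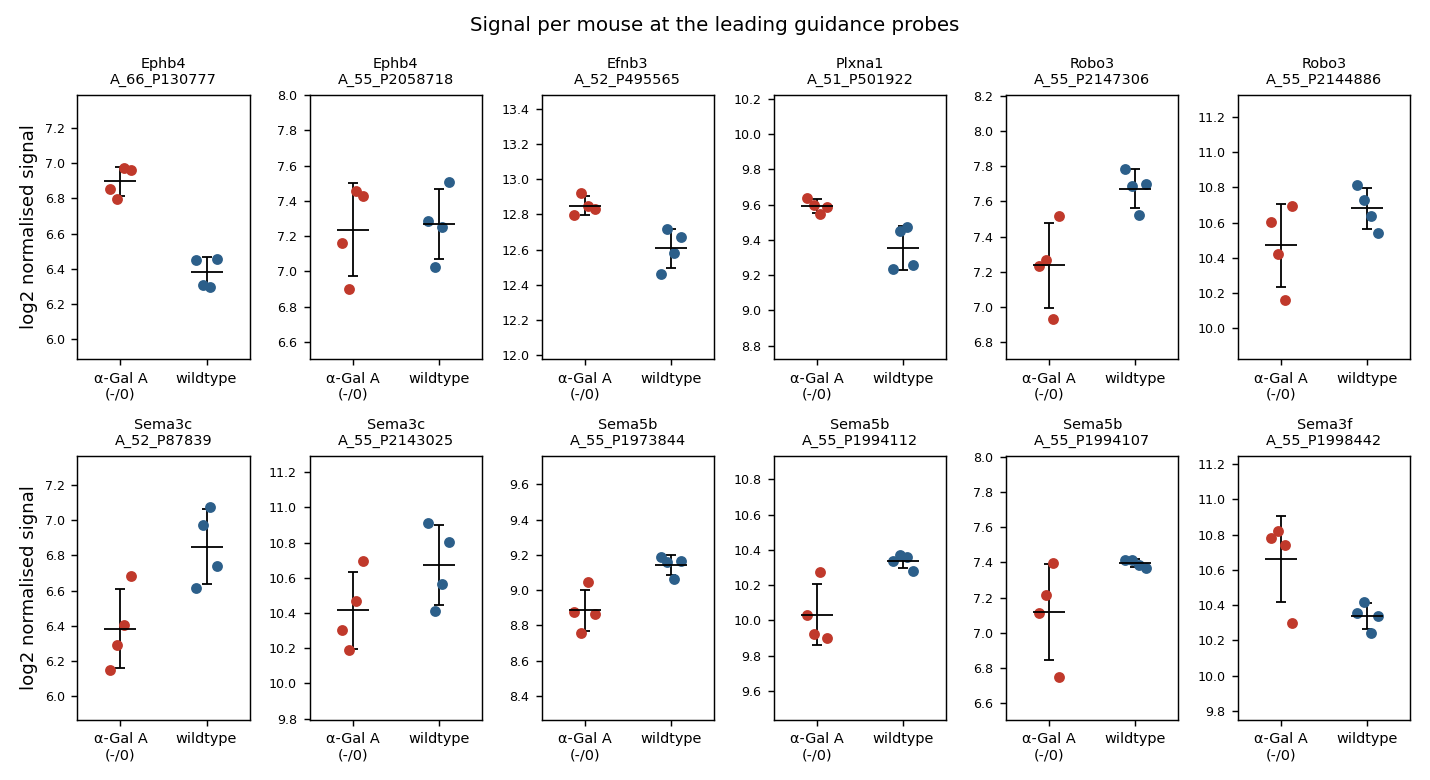
Normalised log2 signal (y axis, each panel spanning the same range) per mouse at 12 guidance probes, α-Gal A(-/0) left and wildtype right, with the mean and SD of 4 mice in black. Separation of all mice is seen at the upstream Ephb4 probe, Efnb3, Plxna1, the first of 2 Robo3 probes and 2 of 3 Sema5b probes, and α-Gal A(-/0) mouse 4 falls among the wildtype mice for Sema3f at 10.30.

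The plexins, the signalling receptors of semaphorins, split by gene. Plxna1, a partner of both neuropilins, had 9.64, 9.60, 9.55 and 9.59 in α-Gal A(-/0) mice, against 9.24, 9.45, 9.48 and 9.26 in wildtype mice. The genotypes did not overlap (log2 difference 0.24, standard error 0.07, 95% interval 0.07 to 0.40, adjusted p = 0.253). A negative difference at the brightest probe was seen in 13553 of 23625 genes of the array and in 7 of 9 plexin genes. Among these, Plxna2 had 12.90, 12.97, 12.96 and 12.80 in α-Gal A(-/0) mice, against 13.07, 13.02, 13.09 and 13.02 in wildtype mice, and Plxnb1 had 9.59, 9.48, 9.50 and 9.58 in α-Gal A(-/0) mice, against 9.71, 9.75, 9.60 and 9.64 in wildtype mice.

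Neither of these 2 plexins overlapped between the genotypes, but the log2 differences of -0.14 each had adjusted p-values of 0.388 and 0.411. Plxna3, on the X chromosome, differed by -0.15 (95% interval -0.29 to -0.01, adjusted p = 0.375) and Plxna4, the receptor that carries much of the Sema3a response, by -0.15 at its brighter probe (95% interval -0.34 to 0.05). The neuropilins stayed near 0. Nrp1 had a log2 difference of -0.04 (95% interval -0.34 to 0.27) and Nrp2 had 0.02 and 0.01 at its 2 probes.

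The Slits, secreted repellents of forebrain axons and interneurons, had small differences. Slit1 had 11.98, 12.27, 12.06 and 12.20 in α-Gal A(-/0) mice, against 12.15, 12.14, 12.16 and 12.14 in wildtype mice. Its mean was the same to within 0.02 on the log2 scale (95% interval of the difference -0.18 to 0.15), although the α-Gal A(-/0) mice were spread more widely. Slit2 differed by -0.03 and Slit3 by -0.06, with intervals within 0.30 of 0.

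Of the Robo family, Robo3, which lets commissural axons cross the midline, had negative differences at both probes. The upstream probe (A_55_P2147306) had 7.23, 7.27, 6.93 and 7.52 in α-Gal A(-/0) mice, against 7.78, 7.69, 7.52 and 7.70 in wildtype mice. The genotypes did not overlap, by a narrow margin between α-Gal A(-/0) mouse 4 and wildtype mouse 3 (log2 difference -0.44, standard error 0.12, 95% interval -0.71 to -0.16, adjusted p = 0.219). The downstream probe had 10.61, 10.42, 10.16 and 10.69 in α-Gal A(-/0) mice, against 10.81, 10.73, 10.64 and 10.54 in wildtype mice, and there the genotypes overlapped (log2 difference -0.21, 95% interval -0.49 to 0.07, adjusted p = 0.537).

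Of 27 tested probes of other genes within 1 Mb of Robo3, 3 passed the fold and p thresholds in limma, against 3.46% of all tested probes. None of the 27 was called, against 0.883% of all tested probes. Robo4, a neighbour of Robo3 known from endothelium, differed by -0.13 (95% interval -0.32 to 0.06). Robo1 differed by 0.08 (95% interval -0.15 to 0.31) and the 3 tested probes of Robo2 by between -0.15 and -0.03. A second Robo1 probe was not well above background on any array.

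The netrins and netrin-Gs, attractants and synaptic adhesion ligands, had no called probe among 8 tested. Ntn1, the classical attractant, had 8.08, 8.01, 7.98 and 7.74 in α-Gal A(-/0) mice, against 7.45, 8.23, 7.60 and 7.75 in wildtype mice. The wildtype mice alone spanned more than the difference between the means (log2 difference 0.20, 95% interval -0.18 to 0.58), with mouse 1 lowest and mouse 2 highest, as for the striatal markers. Ntng1 had log2 differences of 0.11, 0.08 and -0.13 at its 3 probes, the last well above background in 3 of 4 α-Gal A(-/0) mice. Ntng2 had 5.45, 5.33, 5.22 and 5.09 in α-Gal A(-/0) mice, against 5.50, 5.29, 5.74 and 5.58 in wildtype mice, and was well above background in 3 of 4 α-Gal A(-/0) mice (log2 difference -0.25, 95% interval -0.52 to 0.01, adjusted p = 0.426).

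Among the netrin receptors, Unc5a, which mediates repulsion, had 14.30, 14.35, 14.29 and 14.36 in α-Gal A(-/0) mice, against 14.59, 14.46, 14.36 and 14.38 in wildtype mice. The groups touched at 14.36 without overlapping (log2 difference -0.12, 95% interval -0.27 to 0.03, adjusted p = 0.498). Unc5b differed by -0.03 and Unc5c by 0.03 and -0.01. The Unc5d probe was well above background in no α-Gal A(-/0) mouse and in 3 of 4 wildtype mice, and was not tested.

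Dcc, the attractive netrin receptor, was measured weakly. The tested probe on the chromosome of the gene (A_55_P2021744) had 5.86, 5.86, 5.38 and 4.65 in α-Gal A(-/0) mice, against 5.37, 5.73, 5.15 and 5.70 in wildtype mice. The spread within each genotype left an interval of -0.68 to 0.59 around a log2 difference of -0.05, so a difference of 1.5-fold in either direction lies inside it. A second probe was not well above background on any array.

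One more probe named Dcc (A_55_P1961761) is placed on chromosome 7, not on the chromosome of Dcc, and consists largely of 17 GAA repeats in a row. It had signals near 17 on all arrays (log2 difference -0.05) and is not read as Dcc. Likewise 1 of 2 probes named Plxna2 (A_66_P138999) is placed on chromosome 13, whereas the gene lies on chromosome 1. Every other member with a known gene position was placed on the chromosome of its gene. Leaving out these 2 probes changed neither the count of called probes (1) nor that of probes past the fold and p thresholds (4).

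**Figure D3:**
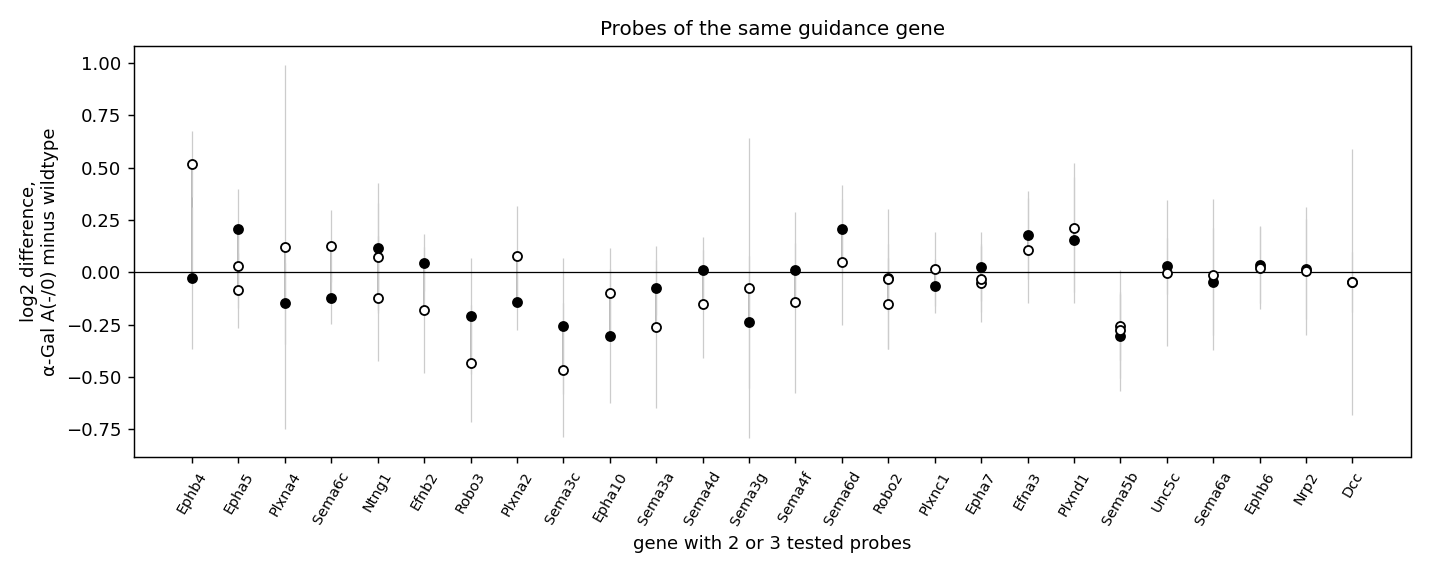
Log2 difference between α-Gal A(-/0) and wildtype mice (y axis) at each tested probe of the 26 guidance genes with more than 1, with 95% intervals as grey bars and the brightest probe of each gene filled. Genes are ordered by the spread of their probes, from Ephb4 at 0.55 on the left, and the 3 Sema5b probes lie together between -0.30 and -0.26.

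Of the 26 genes with 2 or 3 tested probes, 14 had differences of the same sign at every probe and 12 had differences of opposite sign, with a median spread of 0.16 on the log2 scale. Without the misplaced Dcc and Plxna2 probes 24 such genes were left, 13 of the same sign and 11 of opposite sign. After Ephb4 the widest spreads were those of Epha5 (0.29), Plxna4 (0.27), Sema6c (0.25) and Ntng1 (0.24). The dimmer Plxna4 probe contributed through wildtype mouse 2, at 4.56 against 6.01 to 6.08 in the other 3 wildtype mice.

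At the brightest probe of each gene, the mice varied most within genotype for Epha2, Efna4, Sema3d, Ntn1 and Ntn5. Epha2, a receptor of epithelial and progenitor cells, had 6.08, 5.92, 6.62 and 6.58 in α-Gal A(-/0) mice, against 6.41, 6.11, 5.85 and 6.72 in wildtype mice. The 4 highest arrays (α-Gal A(-/0) mice 3 and 4, wildtype mice 1 and 4) were also the 4 in which olfactory bulb markers (6 of 6 tested) averaged above the wildtype mean, at 1.2, 1.02, 0.84 and 0.32 on the log2 scale, against -0.70 to -0.29 in the other 4 mice. Ntn5 ran the other way in part, with 6.32, 6.11, 5.78 and 5.73 in α-Gal A(-/0) mice, against 6.20, 6.28, 6.42 and 5.87 in wildtype mice. The lowest 3 were α-Gal A(-/0) mice 3 and 4 and wildtype mouse 4. Wildtype mouse 1, also high in the markers, was not low in Ntn5, at 6.20 against 6.11 in α-Gal A(-/0) mouse 2. The part of the markers was not tested.

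**Figure D4:**
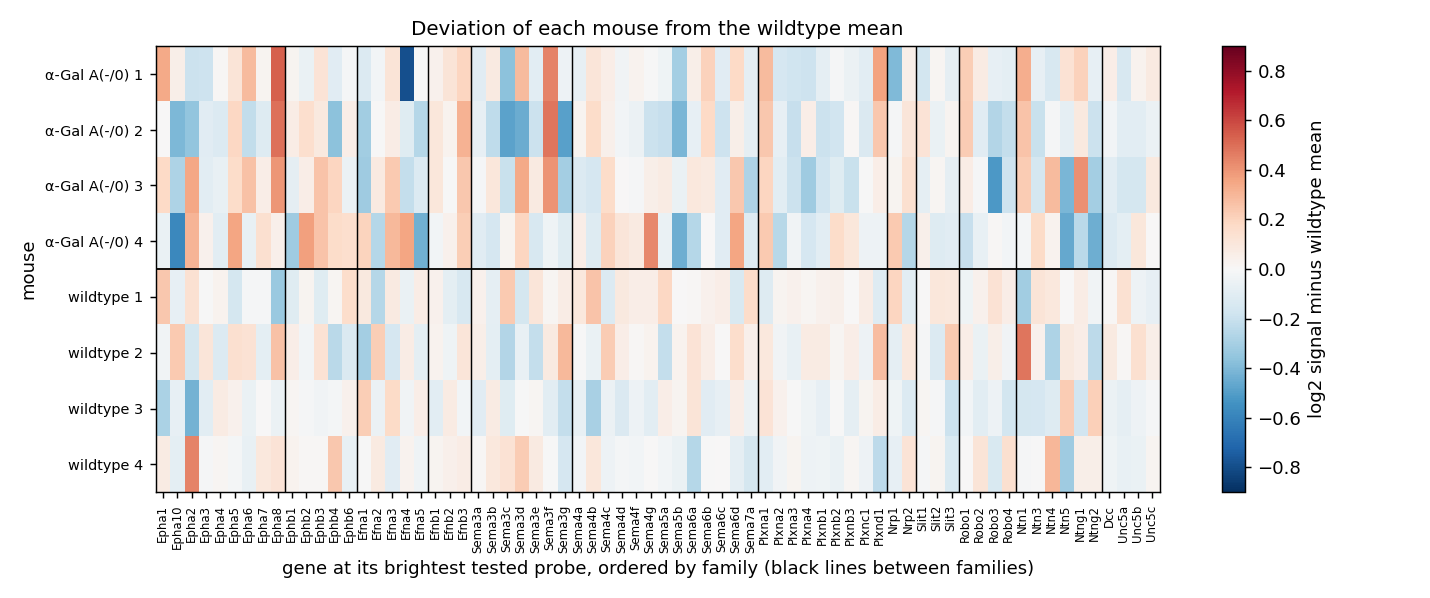
Log2 signal of each mouse minus the wildtype mean (colour) for the 70 tested guidance genes at their brightest probe (x axis, by family), with the 4 α-Gal A(-/0) mice above the 4 wildtype mice. Efnb3 and Plxna1 are above, and Sema5b below, the wildtype mean in all 4 α-Gal A(-/0) mice, Sema3f and Epha8 are red in α-Gal A(-/0) mice 1 to 3, and the Dcc column is the chromosome 7 repeat probe.

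Detection differed for 1 array. The number of guidance probes well above background was 101, 90, 101 and 101 in α-Gal A(-/0) mice 1 to 4, against 102, 102, 101 and 102 in wildtype mice, and over the whole array 29934 to 36131 probes, against 35639 to 38227 in wildtype mice. All 11 guidance probes that were well above background in 3 of 4 α-Gal A(-/0) mice and in all wildtype mice were missed in α-Gal A(-/0) mouse 2, which had the fewest such probes on the array. These dim probes include those of Sema3d, Efna4, Ntn4 and Ntng2, the dimmer ones of Efnb2 and Sema3a, and the dimmest of Ntng1. They entered the test through the wildtype group, which favours probes that are lower in α-Gal A(-/0) mice. Without that mouse, 1 guidance probe was called and 1 passed the fold and p thresholds in limma, against 4 with it.

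The genotype labels could not be checked on the arrays. The single probe of Gla, the gene of α-galactosidase A, had 17.13, 17.18, 17.17 and 17.13 in α-Gal A(-/0) mice, against 17.01, 17.17, 17.06 and 17.13 in wildtype mice. Where it lies relative to the disrupted part is not given in the sources used here. Its signals were near 17, like those of the repeat probe named Dcc. Some mice shared the same value (17.1252 in α-Gal A(-/0) mice 1 and 4 and wildtype mouse 4), as quantile normalisation gives probes of equal rank. The log2 difference was 0.06 (standard error 0.06, limma adjusted p = 0.707). With its place relative to the disrupted part unknown, the probe does not show whether intact Gla RNA differed. Markers of neurons and glia were well above background. Among 13 marker lists compared by exact permutation tests over the 8 arrays, microglial markers (5 of 5 tested) did not overlap, at -0.41 to -0.21 in α-Gal A(-/0) mice and -0.08 to 0.12 in wildtype mice (two-sided p = 0.0286, the smallest the design allows, adjusted p = 0.279). Slide row was uneven, with 1 of 4 α-Gal A(-/0) arrays and 3 of 4 wildtype arrays in row 1.

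The intracellular partners of these receptors and other guidance genes gave 1 call. Of 85 listed genes (among them kinases, collapsin response mediators, adhesion and morphogen receptors), 84 (all but Draxin) were tested at their brightest probe. Fes, a tyrosine kinase linked to semaphorin signalling, was called, against 0.931% of 23625 genes of the array. It had 8.79, 8.80, 8.78 and 8.77 in α-Gal A(-/0) mice, against 9.30, 9.31, 9.37 and 9.21 in wildtype mice, and all α-Gal A(-/0) mice were below all wildtype mice (log2 difference -0.52, standard error 0.05, adjusted p = 0.00314). Its other probe differed by -0.32. Microglial markers were lower as well, at -0.41 to -0.21 in α-Gal A(-/0) mice and -0.08 to 0.12 in wildtype mice. The part of these markers in Fes was not tested.

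An unadjusted p under 0.05 was reached by 12 of the 84 genes, 10 lower and 2 higher in α-Gal A(-/0) mice, against 12.2% of all genes of the array. The array leaned the same way, with 7.57% of all tested probes lower and 4.42% higher at that p. Whether the list leaned more than the array was not tested. The median log2 difference over the list was -0.03, against -0.02 over all genes. Boc, a co-receptor of hedgehog signals in commissural axons, had 8.85, 8.64, 8.92 and 9.17 in α-Gal A(-/0) mice, against 9.65, 9.22, 9.52 and 9.52 in wildtype mice. The genotypes did not overlap (log2 difference -0.58, standard error 0.13), and the adjusted p was 0.115. Kalrn, a Rac exchange factor of dendritic spines, differed by -0.26 at its brightest probe (adjusted p = 0.213), but its 7 probes ranged between -0.26 and 0.26. The 2 higher genes were Dpysl5 (0.20, its other probe -0.25) and Rgma (0.19). Beside Fes and Boc, a dimmer Chn2 probe (0.42, adjusted p = 0.207) and a dimmer Dock3 probe (-0.77, adjusted p = 0.243) passed the fold and p thresholds in limma. At their brightest probes Chn2 and Dock3 differed by 0.17 and 0.07.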

How the data were processed

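Spot intensity values were made by the authors with Agilent Feature Extraction 10.7.3.1 and are, per the file headers, detrended processed signals without normalization between arrays. Spots of a probe were averaged, taken to log2 and quantile normalised over 8 arrays. Controls, and 81 further probes of uneven spots, were dropped after that. A probe was tested if every array of 1 or both genotypes was well above background. The two-sided test was limma's (version 3.58.1, lmFit with eBayes, R 4.3.3, statmod 1.5.0), and p-values were adjusted by Benjamini-Hochberg over all probes tested. Marker lists were compared by exact permutation. Background was also corrected with normexp, offset 50, from the deposited mean and background intensity. A deposited table of GeneSpring log2 values was not used, since its columns do not follow their sample names. Replicate numbers did not pair the arrays. The steps were tested on simulated data. Python 3.11.15 with pandas 2.3.3, numpy 2.4.6, scipy 1.17.1 and matplotlib 3.10.9 made tables and figures.

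Members and gene lists were chosen with earlier results of these data known. Genes named are the called probes, up to 15 more past the study's thresholds in limma (unadjusted p of at most 0.01, fold change of at least 1.2), the 2 genes of lowest p in each family, 22 fixed ligands and receptors, the 5 genes with the widest spread of probes and the 5 with the largest spread within genotype. Other members (such as Sema6d, Plxna2, Epha10, Ephb1, Ephb6, Efnb2, Unc5b and Unc5c), neighbouring genes and genes of the downstream list were named after their values were seen. Alternatives were another scaling, background, filter, variance model, test and block, array weights, each slide row, and each array left out. Samples are separate mice. The number of arrays limits the precision.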

Additional observations from a re-analysis of the deposited data

Results flagged for a closer look

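Among the named probes, 7 of 116 groups of 4 mice held 1 mouse far from the other 3 by Dixon's test, where chance gives about 1 in 20. The ratio of the gap to the range was 0.851 for Sema3f in α-Gal A(-/0) mice, where mouse 4 had 10.30 and the others 10.74 to 10.82. For Sema6c it was 0.861 at the dimmer probe (α-Gal A(-/0) mouse 1 at 9.72, the others at 9.95 to 9.99) and 0.937 at the brighter probe (α-Gal A(-/0) mouse 2 at 10.61, the others at 10.70). In wildtype mice it was 0.95 for the dimmer Plxna4 probe (mouse 2 at 4.56, the others at 6.01 to 6.08) and 0.933 for the brightest Ntng1 probe (mouse 3 at 11.27, the others at 11.49 to 11.51). It was 0.899 for Efnb1 (wildtype mouse 3 at 10.79, the others at 10.91 to 10.92) and 0.848 for Nrp1 (wildtype mouse 1 at 7.46, the others at 7.19 to 7.23).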

How the results depend on the processing

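The number of called guidance probes, 1, was 0 with the methods' t-test, with the replicate block, with the slide row as a block and in slide row 1 or row 2 alone, and lay between 0 (without wildtype mouse 3) and 2 (without α-Gal A(-/0) mouse 4) when each array was left out. The number past the fold and p thresholds in limma, 4, was 1 without a filter, 1 with the methods' t-test, 2 with the replicate block, 2 with the slide row as a block, 1 in row 1 alone, 0 in row 2 alone, and 1 to 4 with each array left out. It was 1 without α-Gal A(-/0) mouse 2, 1 without wildtype mouse 4, 2 without α-Gal A(-/0) mouse 1 and 2 without wildtype mouse 1. The number of called genes of the downstream list, 1, was 2 with normexp and 2 with array weights, 4 with an intensity trend and robust variances (Fes, Boc, Arhgef12 and Kalrn), and 0 with the t-test, the replicate block, either slide row alone or the mean over a gene's probes, and was 1 with each array left out. The cause was not tested, except that single rows hold 4 arrays each. Row 1 holds 1 α-Gal A(-/0) array and row 2 holds 1 wildtype array. The median difference of guidance genes stayed between -0.04 and -0.01. Same-numbered arrays had residual correlations of -0.09 to 0.15, so their numbers do not pair them.

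Of 1213 values of 58 named probes under 21 settings, 82 turned sign, none at a probe called in either fit. Only 6 values lost a call, all at the upstream Ephb4 probe, and 1 gained a call, at Sema3f. With 4 mice per genotype a difference near 1.2-fold is mostly under what can be called, and a high p does not show that a gene did not differ.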
